A study of Mus musculus with 2 samples.

Results

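The genes described here are the Hox genes of the mouse, taken as every symbol of the count table made of Hox, a cluster letter from a to d and a paralogue group number, and ordered by that number within each cluster. The table held 39 such genes among 24421 gene symbols, and the 29 that exceeded 3 counts in either library are called measured. The set was formed with the fold changes of these same libraries in view, so the values below describe the members and test nothing. The RNA came from whole-layer skin of the back of wild type C57BL6/J mice, given in the methods as females of 8 weeks with resting hair follicles, in a study of how mechanical stretch acts on hair follicles. The stretched library came from skin held at 33% strain for 5 days, by a device glued to the back at a proximal and a distal site, whose strain was raised daily, and the device-attached skin was discarded. The control library came from non-stretched skin at the same day. The labels state neither the number of animals behind a library, nor whether control animals wore a device, nor where along the body each piece was cut.

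Hox genes encode homeodomain transcription factors and lie in 4 clusters, in which the order of genes along the chromosome follows the order of their expression along the body axis of the embryo. Low group numbers are used from the hindbrain and neck onwards, middle numbers in the trunk, and groups 9 to 13 towards the lower trunk, limb ends and tail. Adult dermal fibroblasts keep much of this code as a record of the body site from which they come, and Hoxc13 is also a regulator of hair keratin genes inside the hair follicle.

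With 1 library per condition there is no replicate, and no test between conditions was possible. A fold change is the ratio of CPM, each gene's counts scaled to the same library total, in stretched over control skin, on the log2 scale, and its interval is the exact Clopper-Pearson interval at 95%, which covers counting error only and neither animals nor skin pieces. Total counts were 14152379 in the control and 11648655 in the stretched library, so that 3 counts, the floor used here, were 0.212 and 0.258 CPM. The skin labels were matched by the genes of keratinocytes and fibroblasts: Krt5, a basal keratin, had 61216 counts in control and 50601 in stretched skin (0.01), and Col1a1, the chain of type I collagen, had 168121 and 277385. The median log2 fold change of all 16255 measured genes was -0.12.

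The 39 Hox genes together had 4789 counts in control and 3448 in stretched skin, or 338 and 296 CPM (-0.19, interval -0.26 to -0.13). The direction of this sum rested on Hoxc13, and without it, a step chosen after its value was seen, the sums were 3448 and 3147 counts, or 244 and 270 CPM (0.15, interval 0.08 to 0.22). Of the 29 measured genes, 7 were at least 2-fold higher in stretched skin, against 6.32% of all measured genes, and 2 were at least 2-fold lower, against 5.47%. The genes past 2-fold upwards were Hoxa7, Hoxa9, Hoxa10, Hoxb9, Hoxc9, Hoxc10 and Hoxd10, and those downwards were Hoxb3 and Hoxc13. By the counting interval alone, 10 Hox genes were above 0 and 8 below 0, with backgrounds of 18.1% and 33.5%, and 11 intervals included 0. These shares describe the genes that the choice of the set rested on, and nothing is read from them.

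The study's methods keep genes whose FPKM values (CPM per kilobase of exon) in the 2 libraries multiply to more than 10 and state no added value. With 1 added to each FPKM, a choice made here, 16 Hox genes were kept, and 13 without it, with 1 called higher and 2 lower either way. Hoxa7 passed as higher, with a background of 2.61%, and Hoxb3 and Hoxc13 passed as lower, with a background of 2.43%. With the 1 added, the call of Hoxb3 ended with library factors set by TMM, median of ratios or upper quartile, and with totals that left out the top 50 genes, while its plain CPM ratio of 0.409 counted as 2-fold lower under each of these. Of groups 9 and 10 only Hoxd9 was kept by this rule, since the products of the other 6 were not above 10.

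**Figure D1:**
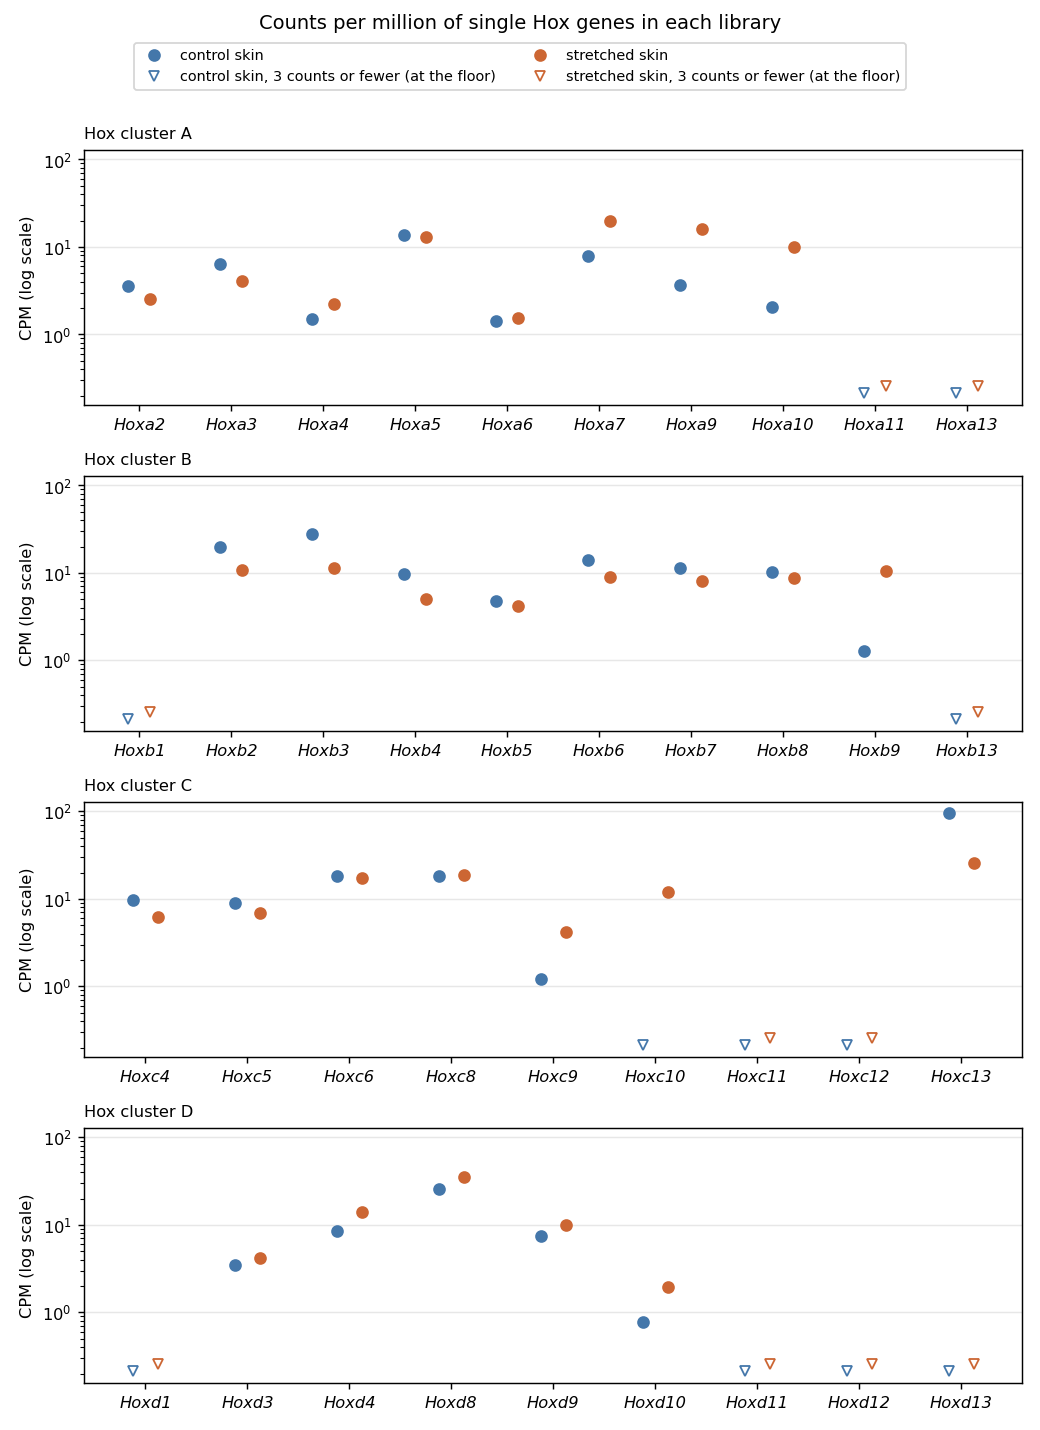
CPM (log axis) of single Hox genes in the control and the stretched library, 1 panel per cluster with group numbers rising to the right; open triangles stand at the floor for genes with 3 counts or fewer. The points of Hoxa9, Hoxa10, Hoxb9, Hoxc9 and Hoxc10 are higher in stretched skin, and Hoxc13, at 94.8 CPM in control skin, is at 25.8 CPM in stretched skin.

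Per length, Hoxc13 had the highest level of any Hox gene in control skin, at 38.5 FPKM, followed by Hoxd8 at 9.45, Hoxc6 at 7.60, Hoxb7 at 7.41 and Hoxa5 at 7.30 FPKM. In stretched skin Hoxd8 led at 12.8 FPKM, followed by Hoxc13 at 10.5, Hoxc6 at 7.20, Hoxa5 at 6.95, Hoxa7 at 6.87, Hoxc8 at 6.70 and Hoxc10 at 6.25 FPKM. Hoxc10, with 0 counts in control skin, was thus among the 7 highest Hox genes per length in stretched skin. The order of neighbours such as Hoxb7 and Hoxa5, or Hoxa7 and Hoxc8, rests on differences that 1 library per condition cannot separate from the spread between samples.

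Groups 9 and 10 hold 7 genes, which pattern the lower trunk and the limbs in the embryo, and all 7 were measured with intervals above 0, against 18.1% of all measured genes. Their summed counts were 233 in control and 753 in stretched skin (1.97, interval 1.76 to 2.19), and the median over genes was 2.13. In bulk skin, more cells that express these genes and more RNA per cell cannot be told apart. The homeobox, the part of the gene that encodes the DNA-binding homeodomain, is shown for 2 of these genes beside Hoxc13, which was at least 2-fold lower. Sequences are the sense strand of GENCODE M21 transcripts on mm10, and capitals mark the codons of the invariant stretch of the recognition helix by which each homeobox was located.
Hoxb9 (chr11:96274659-96274838, + strand, exon 2 of 2): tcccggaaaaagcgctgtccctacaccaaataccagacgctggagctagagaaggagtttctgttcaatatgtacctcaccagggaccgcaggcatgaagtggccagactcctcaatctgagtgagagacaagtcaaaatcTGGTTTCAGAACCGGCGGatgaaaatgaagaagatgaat
Hoxc10 (chr15:102970848-102971027, + strand, exon 2 of 2): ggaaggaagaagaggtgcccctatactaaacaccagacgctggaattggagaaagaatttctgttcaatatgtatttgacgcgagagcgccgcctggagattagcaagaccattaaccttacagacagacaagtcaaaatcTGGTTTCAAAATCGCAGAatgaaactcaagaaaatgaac
Hoxc13 (chr15:102927210-102927389, + strand, exon 2 of 2): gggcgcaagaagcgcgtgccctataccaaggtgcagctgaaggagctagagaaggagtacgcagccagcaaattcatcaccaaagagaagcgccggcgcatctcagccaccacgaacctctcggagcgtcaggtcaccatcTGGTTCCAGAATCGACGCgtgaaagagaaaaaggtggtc
The homeoboxes of Hoxb9 and Hoxc10 were identical at 128 of 180 bases (71.1%), while Hoxc10 and Hoxc13, from the same cluster, shared 101 (56.1%). Over all 39 genes, the 42 pairs of the same paralogue group had a median identity of 80.6%, with a range of 67.2% to 93.9%, and the 699 pairs of different groups had 60.6%. The longest run of identical bases between any 2 homeoboxes was 52, in Hoxa6 and Hoxb4, which is shorter than full reads of 76 bases. Outside the homeobox too, no stretch of 76 exonic bases was shared between Hox genes of different clusters. The methods also kept reads that were shorter after quality filtering, and neither comparison covers those.

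Hoxb9, used in the patterning of the rib-bearing trunk, had 18 counts in control and 124 in stretched skin (chr11:96271457-96276595). This is an 8.37-fold difference in CPM, or 3.07 on the log2 scale (interval 2.35 to 3.87). Its neighbour Hoxb8 had 145 and 103 counts (-0.21, interval -0.59 to 0.16). The difference between the log2 fold changes of these adjacent genes was 3.28 (interval 2.44 to 4.16), so the step lay between group 8 and group 9 of cluster B.

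Hoxc10, known from lumbar motor neurons and the hindlimb region, had 0 counts in control and 139 in stretched skin (chr15:102966796-102971893). With its 0 control counts set to the floor of 3, the ratio was 56.3 (5.81), a bound that rests on this floor. The counting interval of 0 against 139 counts started lower, at 5.50 on the log2 scale. Its exons overlap those of Hoxc5 over 8.70% of their bases, and Hoxc5 itself had 126 counts in control skin, where none was assigned to Hoxc10. Hoxc9, the thoracic motor neuron gene next to it, had 17 and 49 counts (1.81, interval 0.99 to 2.70). From Hoxc8 (256 and 221 counts, 0.07) to Hoxc9 the log2 fold change was larger by 1.74 (interval 0.87 to 2.67), and from Hoxc9 to Hoxc10 it was larger by at least 3.46.

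In cluster A, Hoxa9, a regulator of blood progenitors, had 52 counts in control and 187 in stretched skin (2.13, interval 1.68 to 2.60). Hoxa10, required in the uterus and for lumbar vertebrae, had 29 and 115 counts (2.27, interval 1.67 to 2.91). The difference between these adjacent genes was 0.14, with an interval of -0.63 to 0.93 that included 0. Hoxa7, on their group 8 side, was also higher, with 111 and 230 counts (1.33, interval 0.999 to 1.67), and Hoxa9 exceeded it by 0.80 (interval 0.22 to 1.38).

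The smallest fold changes of groups 9 and 10 were in cluster D. Hoxd9 had 106 counts in control and 116 in stretched skin (0.41, interval 0.02 to 0.80), and Hoxd10, which acts in hindlimb motor neurons, had 11 and 23 (1.35, interval 0.25 to 2.53). Paralogues of the same group were compared in 11 pairs, chosen with their values known. The log2 fold change of Hoxd9 was below that of Hoxa9 by 1.72 (interval 1.11 to 2.33), of Hoxb9 by 2.65 (interval 1.81 to 3.55) and of Hoxc9 by 1.40 (interval 0.47 to 2.37). For group 10, Hoxa10 and Hoxd10 differed by 0.92, with an interval of -0.43 to 2.20 that included 0. Hoxd10 was also the measured Hox gene with the fewest counts. At the floor in 1 library, and so not measured, were Hoxb1 with 3 and 0 counts, Hoxc12 with 3 and 1, and Hoxa11 with 0 and 3.

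**Figure D2:**
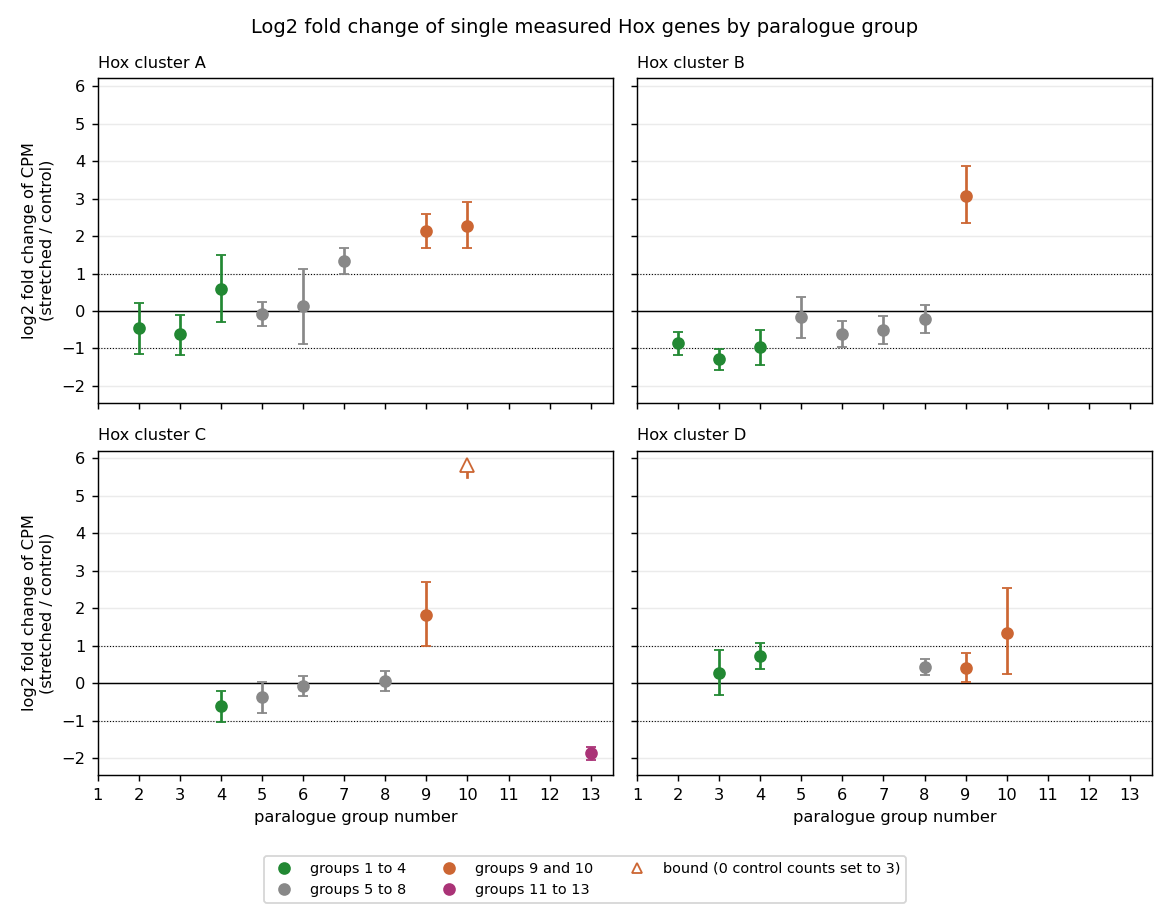
Log2 fold change of CPM (stretched over control) of single measured Hox genes against paralogue group number, 1 panel per cluster; bars are counting intervals at 95%, dotted lines mark 2-fold, and the open triangle is the bound for Hoxc10. Groups 9 and 10 lie between 0.41 and 5.81, groups 1 to 4 between -1.29 and 0.73, and Hoxc13 stands alone at -1.87.

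Groups 1 to 4 hold 12 genes, which pattern the hindbrain, neck and branchial arches, and 10 were measured. Their summed counts were 1308 in control and 724 in stretched skin (-0.57, interval -0.71 to -0.44), and the median over genes was -0.54. Of the 10, 5 had intervals below 0, 4 included 0 and 1, Hoxd4, was above 0, and of all measured genes 33.5% were below and 18.1% above. The lowest values were in cluster B. Hoxb3, a hindbrain gene, had 395 counts in control and 133 in stretched skin (-1.29, interval -1.584 to -1.003). Hoxb2, which acts with it in the hindbrain, had 277 and 125 counts (-0.87, interval -1.18 to -0.56). Hoxb4, known for its effect on blood stem cells, had 138 and 58 counts (-0.97, interval -1.44 to -0.52). The exonic stretches of 76 bases of Hoxb3 and Hoxb2 lie to 50.4% and 25.2% in the antisense gene Hoxb3os, from whose reads theirs cannot be told apart without a stated strand setting. Thus each of the 3 measured genes of this end of cluster B had fewer counts in stretched skin, by intervals that did not reach 0.

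In cluster A, Hoxa3, needed for the thymus and parathyroid, had 90 counts in control and 48 in stretched skin (-0.63, interval -1.16 to -0.11). Hoxa2, which sets the identity of the second branchial arch, had 50 and 30 counts (-0.46, interval -1.16 to 0.23). Hoxa4 had 21 and 26 counts (0.59, interval -0.30 to 1.49), and its difference from the adjacent Hoxa3 was 1.21 (interval 0.16 to 2.27). The only gene of these groups in cluster C, Hoxc4, had 136 and 73 counts (-0.62, interval -1.05 to -0.20). Thus Hoxa3 and Hoxc4 had intervals below 0, and those of Hoxa2 and Hoxa4 included 0.

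The cluster D genes of the same groups had other values. Hoxd4, used in the cervical region, had 120 counts in control and 164 in stretched skin (0.73, interval 0.38 to 1.08), and Hoxd3 had 49 in each (0.28, interval -0.32 to 0.88). Hoxd4 exceeded its paralogue Hoxb4 by 1.70 (interval 1.12 to 2.29) and Hoxc4 by 1.35 (interval 0.79 to 1.91), and Hoxd3 exceeded Hoxb3 by 1.57 (interval 0.89 to 2.24). Of the exonic stretches of 76 bases of Hoxd3 and Hoxd4, 59.0% and 43.8% lie also in other genes of the locus, among them each other, so the reads assigned to them are uncertain. Hoxb1 (3 and 0 counts) and Hoxd1 (2 and 0 counts) were not measured.

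Groups 5 to 8 hold 11 genes of the trunk, and all were measured. Their summed counts were 1904 in control and 1663 in stretched skin (0.09, interval -0.01 to 0.18), and the median over genes was -0.08, which turned to between 0.02 and 0.03 with library factors set by TMM, median of ratios or upper quartile in place of the totals. These factors moved the median of all measured genes from -0.12 to between -0.02 and -0.01. Of the 11, 7 intervals included 0, 2 were above 0 and 2 below, where 18.1% and 33.5% of all measured genes were. Those above were Hoxa7 and Hoxd8, the latter with 367 counts in control and 408 in stretched skin (0.43, interval 0.23 to 0.64). Those below were the neighbours Hoxb6, with 197 and 106 counts (-0.61, interval -0.97 to -0.27), and Hoxb7, with 162 and 94 (-0.50, interval -0.89 to -0.13). Exonic bases of Hoxa7 overlap the antisense gene Hoxaas3 over 20.4% of their length, and without a stated strand setting their reads cannot be told apart.

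The other trunk genes had intervals that included 0. Hoxa5, a gene of lung and axial development, had 194 counts in control and 152 in stretched skin (-0.07), Hoxb5 had 67 and 49 (-0.17), and Hoxc5 had 126 and 80 (-0.37). Hoxa6 had 20 and 18 counts (0.13), and Hoxc6, among the highest Hox genes per length in both libraries, had 259 and 202 (-0.08). The signs of Hoxa5 and Hoxc6 were positive under those 3 scalings, so neither has a direction here.

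Groups 11 to 13 hold 9 genes, which act at limb ends, in the urogenital tract and in the tail, and 8 of them were not measured. Hoxb13, Hoxd11, Hoxd12 and Hoxd13 had 0 counts in both libraries, Hoxa13 had 0 and 1, Hoxc11 had 0 and 2, and Hoxa11 and Hoxc12 had at most 3. With the floor of 3 counts as the limit for a count of 0, these allow up to 0.212 CPM in control and 0.258 CPM in stretched skin. This limit is one-sided and lower than that of the interval used for ratios. The exception was Hoxc13, which had 1341 counts in control and 301 in stretched skin (-1.87, interval -2.06 to -1.69), and so held 28.0% of all Hox counts in control and 8.73% in stretched skin.

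Genes of the hair shaft, in which Hoxc13 is known to act, were also lower. All 13 of a list of hair shaft genes had intervals below 0, against 33.5% of all measured genes, with a median of -4.04. Their summed level was 1761 CPM in control and 180 CPM in stretched skin, with no member at 0. Krt35, a hair keratin, had 6503 and 977 counts (-2.45), Krt31 had 2351 and 116 (-4.06), Krt33a had 3794 and 176 (-4.15), and Krt83 had 2154 and 80 (-4.47). Foxn1, a transcription factor of the hair matrix, had 592 and 155 counts (-1.65), close to the value of Hoxc13. All 6 melanocyte genes had intervals below 0 too, against the same 33.5%, with a median of -1.38 and summed levels of 437 and 194 CPM. Among them were the pigment genes Tyr (389 and 97 counts, -1.72), Tyrp1 (-1.57), Pmel (-1.24) and Dct (-1.04). The part of hair follicle content in the value of Hoxc13 was not tested.

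**Figure D3:**
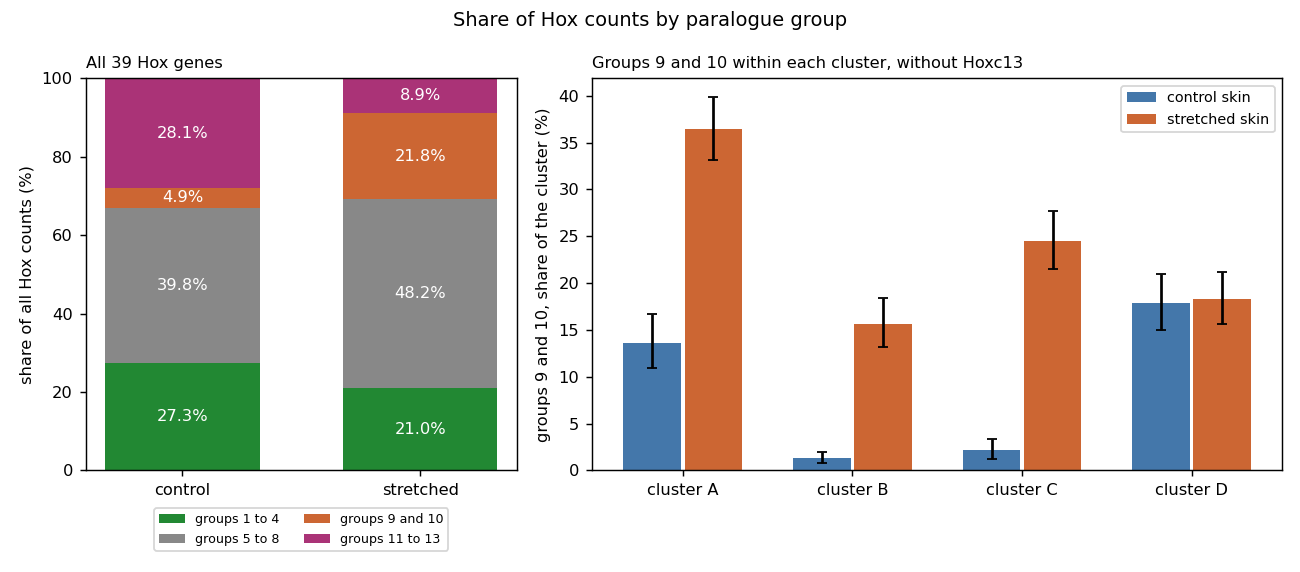
Left, share of all Hox counts (%) held by each range of paralogue groups in the control and the stretched library; right, share of each cluster's counts (%) held by groups 9 and 10 with Hoxc13 left out, with exact binomial intervals at 95%. Groups 9 and 10 take 4.87% of Hox counts in control and 21.8% in stretched skin, and within cluster D their share is 17.9% and 18.3%.

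A share within the Hox counts of a library does not depend on the scaling between libraries. Groups 9 and 10 held 4.87% of Hox counts in control (exact binomial interval 4.27 to 5.51) and 21.8% in stretched skin (20.5 to 23.3), and groups 1 to 4 held 27.3% and 21.0%. Groups 5 to 8 held 39.8% and 48.2%, and groups 11 to 13 held 28.1% and 8.93%. Because Hoxc13 weighs so much in control skin, groups 9 to 13 as a whole held 32.9% and 30.8%, but without Hoxc13, a step chosen after its value was seen, 6.84% and 24.2%. With Hoxc13 left out, groups 9 and 10 held 6.76% and 23.9%, groups 1 to 4 held 37.9% and 23.0%, and groups 5 to 8 held 55.2% and 52.8%. In these shares without Hoxc13, what groups 9 and 10 gained was matched mainly by what groups 1 to 4 lost. Over all Hox counts, the largest loss was that of groups 11 to 13.

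Within clusters the same shares, again without Hoxc13, were 13.6% and 36.5% in cluster A, 1.28% and 15.7% in cluster B, and 2.13% and 24.5% in cluster C. In cluster D they were 17.9% (interval 15.0 to 21.0) and 18.3% (15.6 to 21.2), in control and stretched skin. Cluster D therefore already had the largest share of group 9 and 10 counts in control skin, at 117 of 655 counts, and was the only cluster of the 4 in which the intervals of this share overlapped. Its 5 measured genes all had positive log2 fold changes, from 0.28 to 1.35, and its summed counts were 655 and 760 (0.50, interval 0.34 to 0.65). The 7 genes of groups 2 to 8 in cluster B, a range set with the values known that leaves out Hoxb9 (3.07), all had negative values. These ran from -1.29 to -0.17, and 5 had intervals below 0, against 33.5% of all measured genes. Of all 16255 measured genes, 6262 had positive and 9993 negative values. Cluster sums were 594 and 828 counts in cluster A (0.76), 1402 and 792 in cluster B (-0.54) and 2138 and 1068 in cluster C (-0.72). The sum of cluster C also turned without Hoxc13, to 797 and 767 counts (0.23, interval 0.08 to 0.37).

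**Figure D4:**
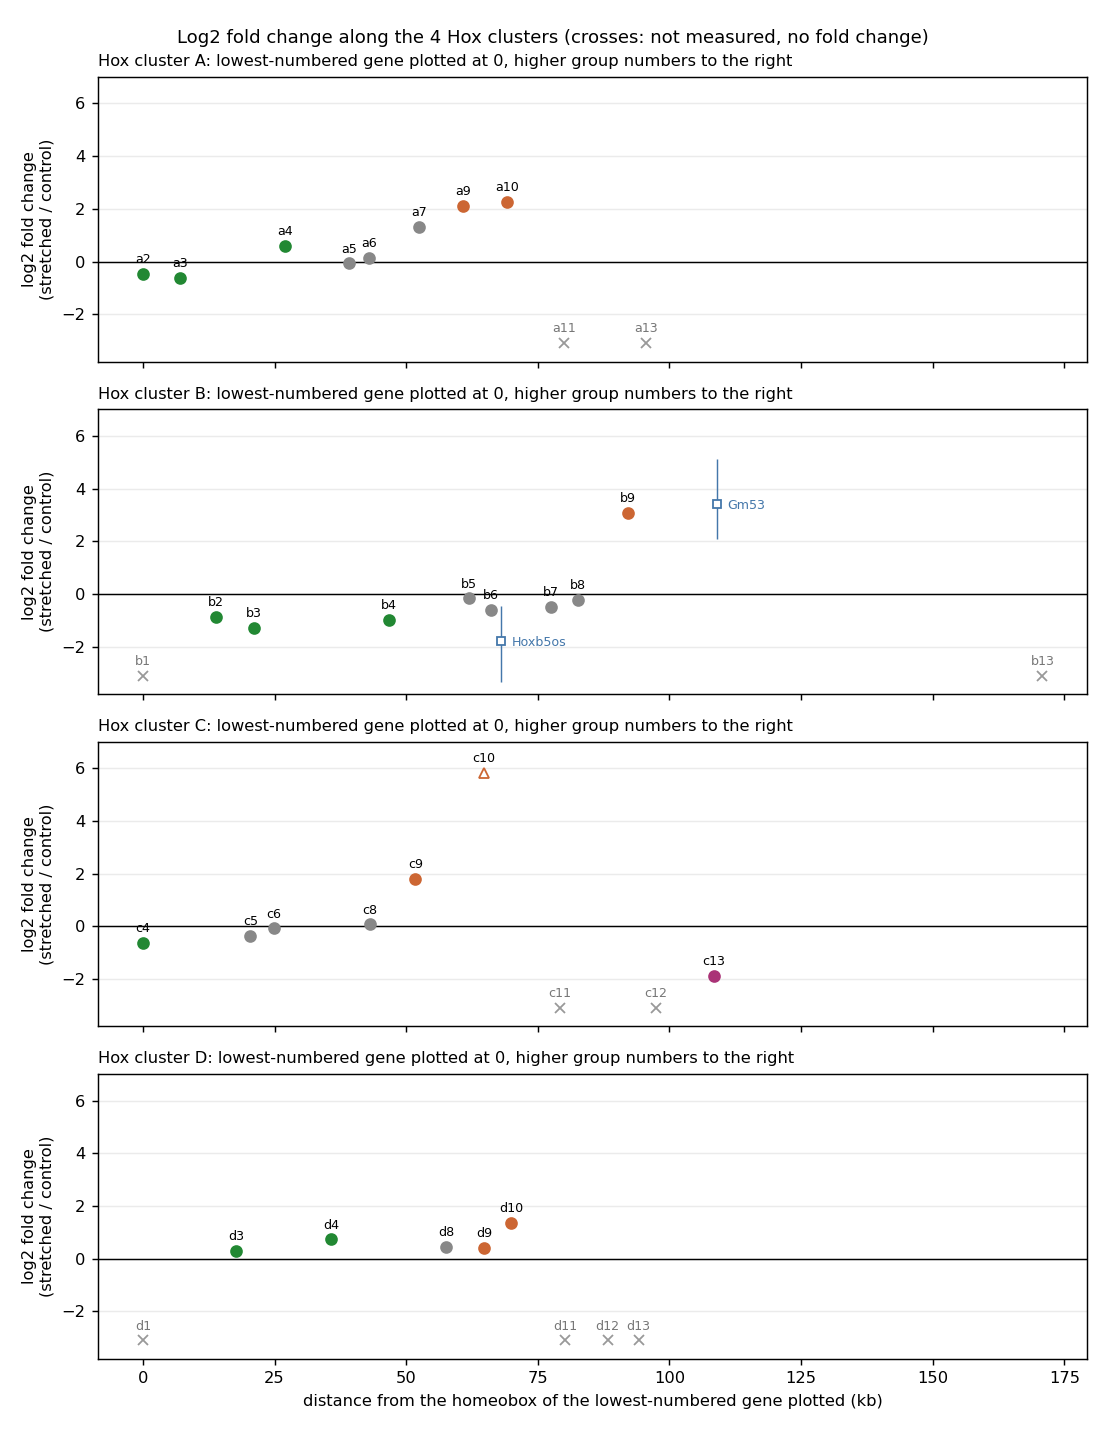
Log2 fold change of CPM of single Hox genes against the distance (kb) of its homeobox from that of the lowest-numbered gene plotted in its cluster; coloured by group range as in the plot by group number, with crosses for genes not measured, an open triangle for the bound of Hoxc10 and squares with counting intervals for 2 other transcripts of cluster B. In clusters B and C the values step from -0.21 at Hoxb8 to 3.07 at Hoxb9 and from 0.07 at Hoxc8 to 1.81 at Hoxc9.

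As a description, Spearman's rho between group number and log2 fold change was 0.55 over the 29 measured genes and 0.72 over the 28 without Hoxc13, in 1 pair of libraries. It was 0.88 in cluster A (9 genes), 0.79 in cluster B (8), 0.60 in cluster D (5), and 0.25 in cluster C (7), where it was 1 over the 6 genes without Hoxc13. The genes are neighbours in the same libraries and are not independent. Of 25 pairs of adjacent measured genes, 7 had a higher value at the higher-numbered gene by an interval that excluded 0, 1 a lower value, from Hoxc10 to Hoxc13, and 17 intervals included 0. The plot of values along the clusters shows that the change was not even, with steps at Hoxb9, Hoxc9 and Hoxc10 and a more gradual course from Hoxa6 to Hoxa10.

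Other transcripts of the clusters were few. Of 23 fixed genes transcribed inside the clusters, 18 were in the table and 6 were measured, with 1 interval above 0 and 1 below, against 18.1% and 33.5% of all measured genes. Mira, a noncoding transcript at Hoxa7, had 105 counts in control and 191 in stretched skin (1.14, interval 0.79 to 1.50), and since it overlaps the end of Hoxa7 (chr6:52214491-52215288 in RefSeq) its reads and those of Hoxa7 cannot be told apart. Hoxb5os, antisense in the middle of cluster B, had 25 and 6 counts (-1.78, interval -3.35 to -0.46). Outside that list, and chosen by its place after its values were seen, the noncoding gene Gm53 (chr11:96251105-96264868), which lies beyond Hoxb9 towards Hoxb13, had 5 and 44 counts (3.42, interval 2.09 to 5.11). Hotair, a noncoding RNA between Hoxc11 and Hoxc12, had 0 and 1 counts, and Hottip, beyond Hoxa13, had 0 in both.

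The microRNA genes beside groups 9 and 10 were near 0 as well, in libraries not made for small RNA. Mir196a-1, beyond Hoxb9, had 0 and 2 counts, while Mir196a-2, between Hoxc10 and Hoxc9, and Mir196b, at Hoxa9, had 0 in both. Their mature forms from RefSeq (GRCm38.p6), shown because this family is known to repress Hoxb8 and its genes sit beside those of groups 9 and 10, share the seed marked in capitals (bases 2 to 8).
miR-196a-5p: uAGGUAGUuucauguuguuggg
miR-196b-5p: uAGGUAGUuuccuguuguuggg
Nothing can be said about the mature microRNAs from these counts.

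Genes that flank the clusters were read from a fixed list. Of 29 flanking genes in the table, 25 were measured, with a median of -0.11, 5 intervals above 0 and 10 below, against 18.1% and 33.5% of all measured genes, and 10 that included 0. The 2 that were at least 2-fold higher, Skap1 (6 and 12 counts, 1.28) and Nfe2 (11 and 19, 1.07), had intervals that included 0. Hnrnpa2b1, an RNA-binding protein gene near cluster A, had 7262 and 4837 counts (-0.31), and Nfe2l1, a transcription factor gene near cluster B, had 6513 and 6261 (0.22). Evx1 and Evx2, the homeobox genes at the group 13 ends of clusters A and D, had 0 and 1 and 0 and 0 counts.

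Genes that act with or upstream of Hox genes were read from fixed lists. The 9 TALE cofactors, homeodomain proteins that bind DNA together with Hox proteins, had a median of -0.14, with 1 interval above 0, 2 below, against the shares of 18.1% and 33.5% over all measured genes, and 6 that included 0, while Pbx2 had 601 and 417 counts (-0.25, interval -0.43 to -0.06). The 3 Cdx genes, which switch on trunk Hox genes in the embryo, were all below the floor. The 27 Polycomb genes, whose proteins keep Hox genes silent, had a median of -0.28, with 13 intervals below 0, against 33.5% of all measured genes, 1 above, against 18.1%, and 13 that included 0, among the members Rbbp4 (2425 and 1637 counts, -0.29) and Rbbp7 (1980 and 1578, -0.05). The 12 Trithorax and H3K27 demethylase genes, which keep them active, had a median of -0.30, with 9 intervals below 0, against the same 33.5%, including Kmt2b (1462 and 892 counts, -0.43) and excluding Kdm6b (1209 and 928, -0.10). None of these cofactor and chromatin genes was 2-fold higher or lower.

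Retinoic acid is an inducer of Hox genes with low numbers. Of 18 genes of its pathway 17 were measured, with a median of -0.05, 6 intervals above 0 and 6 below, against 18.1% and 33.5% of all measured genes. Stra6, a receptor for retinol uptake, had 284 and 77 counts (-1.60), and Aldh1a3, an enzyme that makes retinoic acid, had 761 and 309 (-1.02). Cyp26a1, which degrades it, had 0 and 7 counts. Of 34 other regional patterning genes 31 were measured, with a median of -0.05, 2 at least 2-fold higher and 8 at least 2-fold lower, against 6.32% and 5.47% of all measured genes. The higher ones, Meox1 (95 and 198 counts, 1.34) and Six2 (0 and 5 counts), were named after their values were seen. The lower ones included homeobox genes that are also expressed in hair follicles, namely Dlx3 (3081 and 734 counts, -1.79), Msx2 (1219 and 235, -2.09), Msx1 (691 and 204, -1.48) and Dlx2 (290 and 69, -1.79). Tbx15, a gene of the dorsal trunk dermis, had 1397 and 1111 counts (-0.05).

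**Figure D5:**
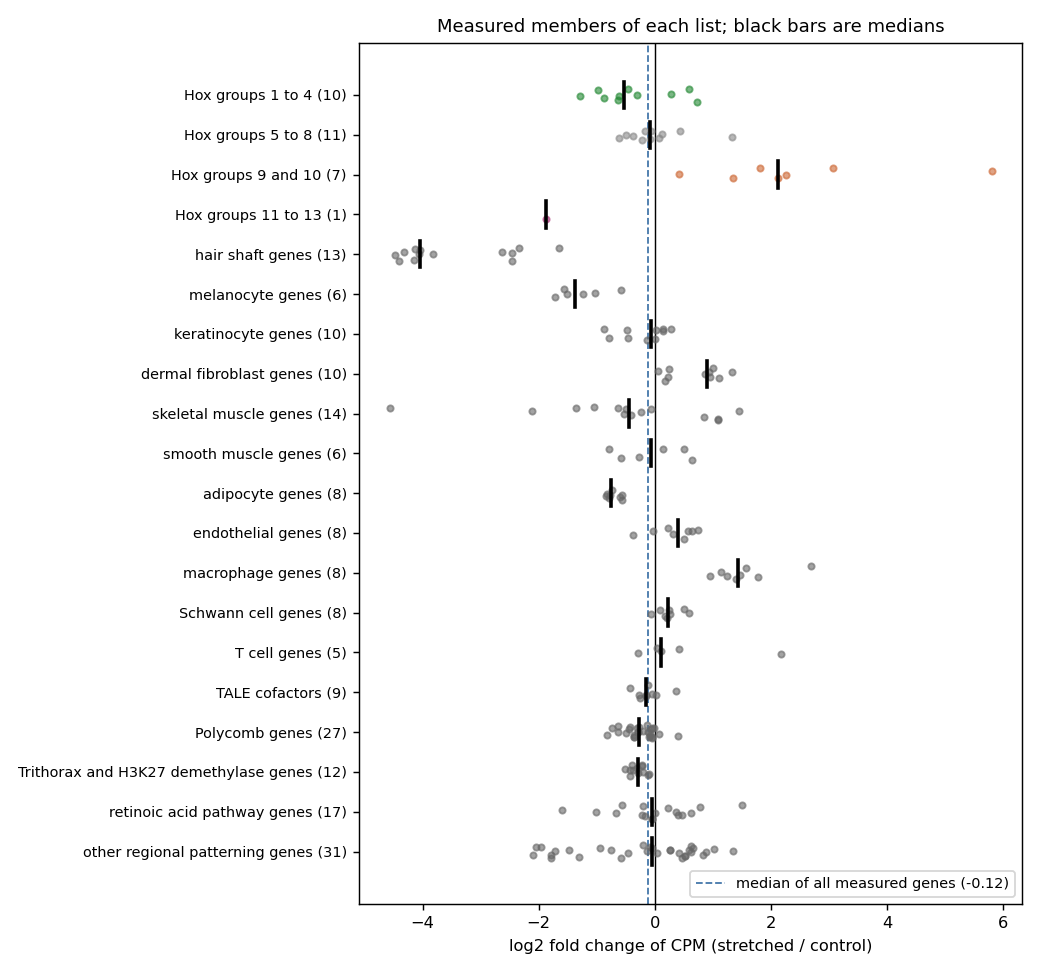
Log2 fold change of CPM of each measured member of the Hox group ranges and of the fixed gene lists, with black bars at the medians and the number of measured members in brackets; the dashed line is the median of all measured genes. Hox groups 9 and 10 have the highest median (2.13) and hair shaft genes the lowest (-4.04).

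Markers of the cell types of whole skin differed as well. All 10 dermal fibroblast genes, from the cells that carry most of the positional Hox code, had intervals above 0, against 18.1% of all measured genes. Their median was 0.90, and the lowest were Dcn (0.06), Pdgfra (0.18), Dpt (0.22) and Lum (0.25). Summed levels, mostly from Col1a1, Col1a2 and Col3a1, were 41626 CPM in control and 78228 CPM in stretched skin. Thbs2 (2291 and 4730 counts, 1.33), Fbln1 (1217 and 2153, 1.10) and Col1a1 were past 2-fold. All 8 macrophage genes had intervals above 0, against the same 18.1%, with a median of 1.43 and sums of 340 and 786 CPM. Among them were Adgre1 (472 and 1148 counts, 1.56), Cd68 (323 and 735, 1.47), Itgam (388 and 752, 1.24) and Csf1r (1763 and 3216, 1.15). All 8 adipocyte genes had intervals below 0, against 33.5% of all measured genes, with a median of -0.75 and sums of 1993 and 1284 CPM. Among them were Fabp4 (9146 and 5115 counts, -0.56) and Lpl (7624 and 4254, -0.56). No marker of these lists was at 0 in both libraries.

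The medians of the other lists were -0.06 for 10 keratinocyte genes (16887 and 17136 CPM in sum), -0.07 for 6 smooth muscle genes (758 and 755 CPM), 0.40 for 8 endothelial genes (269 and 356 CPM) and 0.22 for 8 Schwann cell genes (686 and 771 CPM). The median of 5 measured T cell genes was 0.11, and all 6 in the table summed to 19.2 and 22.5 CPM. Cd4, the T cell gene past 2-fold, had 15 and 56 counts (2.18, interval 1.34 to 3.11), while the intervals of the other 4 measured T cell genes included 0. Keratinocyte genes ranged from -0.87 at Flg2 to 0.28, with 4 intervals above 0 and 5 below. Endothelial genes ranged from -0.37 at Kdr (442 and 281 counts) to 0.74, with 4 above and 1 below. Smooth muscle genes had 3 above and 2 below, and Schwann cell genes 3 above and 0 below. Of all measured genes, 18.1% were above and 33.5% below, and nothing is read from these counts. Members with many counts were Krt10 (63504 and 53008 counts, 0.02) beside Krt5, Acta2 (3976 and 3604, 0.14) and Tagln (2609 and 1777, -0.27) of smooth muscle, Pecam1 (851 and 988, 0.50) and Cdh5 (709 and 866, 0.57) of endothelium, and Pmp22 (3362 and 3193, 0.21) of Schwann cells. The 14 skeletal muscle genes, from the muscle sheet under the dermis, had a median of -0.45, with 4 intervals above 0 and 10 below. Their sums were 35898 and 26513 CPM, but Myh4, a fast myosin, had 91029 and 3156 counts (-4.57) and Myh1, another, 31133 and 54759 (1.10). Atp2a1, a calcium pump of fast muscle, had 62233 and 19998 counts (-1.36), and Ckm, the muscle creatine kinase, had 50821 and 20271 (-1.05). The part of cell type content in the Hox values was not tested. In the same libraries the fibroblast list was higher, Hox groups 1 to 4 were lower and groups 9 and 10 were higher. Whether these values are related was not tested. The body level of the skin pieces, which the labels do not give, and stretch cannot be told apart, and neither can be told apart from the difference between animals.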

How the data were processed

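RNA from whole-layer skin was prepared with a TruSeq kit, and single-end reads of 76 bases were filtered and mapped to mm10 with TopHat2 by the authors. The authors deposited raw gene counts, not normalized, for 1 control and 1 stretched library. The counter, its annotation and its strand setting are not given in the sources used here. Counts were divided by library totals to CPM, and FPKM was computed with the union of GENCODE M21 exons for genes matched by name (23376) or synonym (646), with 1 added to each value in the methods' rule, for both its product and its fold. A gene was measured above 3 counts in at least 1 library. Ratios carry exact Clopper-Pearson intervals, and differences between genes exact conditional intervals (scipy 1.17.1). Alternative scalings used edgeR 4.0.16 and DESeq2 1.42.0 for size factors only, and the ratio step was tested on simulated data. The Hox genes were named one by one, and some items of the gene and sequence sets are not reported here. From each other list, the members past 2-fold whose interval excludes 0 were named, at most 4 by counts, otherwise the 2 with the most counts, and further genes were chosen after their values were seen. Members and lists were chosen with earlier results of these data known.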

Additional observations from a re-analysis of the deposited data

How the results depend on the processing

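Of 75 recomputed values, 59 stayed near the reported value, although among them the median of groups 5 to 8 changed sign, from -0.08 to 0.03 (TMM), 0.03 (median of ratios) or 0.02 (upper quartile). Hox genes at least 2-fold higher fell from 7 to 4 when the whole interval had to lie past 2-fold. By the methods' rule, the genes called lower went from 2 to 1, without Hoxb3 (TMM, median of ratios, upper quartile, and totals without the top 50 genes), and with the FPKM product above 100 there were 0 higher and 1 lower. Without that product there were 5 higher, and with the longest transcript as length 2. The median of groups 11 to 13 turned from -1.87 to 0.28 with no filter on low counts, because genes at the floor in both libraries then enter with the ratio of the totals. The share of groups 9 to 13 was 35.3% in control and 35.2% in stretched skin after leaving out Hoxa3, Hoxa7, Hoxa11 and Hoxd4, whose exons overlap those of other genes in the table over 10% or more, while Hoxb2, Hoxb3 and Hoxd3, which share exonic stretches with other genes of the annotation, stayed in, and 6.84% and 24.2% without Hoxc13, the latter chosen after seeing the data. Without Hoxc13 the summed log2 fold change turned from -0.19 to 0.15 for all Hox genes and from -0.72 to 0.23 for cluster C. Scaling by TMM, median of ratios or upper quartile shifted every log2 fold change by 0.10 to 0.11. Without Hoxc10 the median of groups 9 and 10 was 1.97, and with 1 CPM added to each value it was 1.83. No paired analysis was possible because each condition had 1 library, and for the same reason no library could be left out. Counts under about 20, as for Hoxb9 and Hoxc9 in control skin, leave wide intervals.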
